A study of Homo sapiens with 6 samples.

Results

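The RB and E2F family comprises the pocket proteins and the E2F transcription factors. In all, 10 of its genes were followed in HCT116 cells with and without PLEK2 knockdown. The members were taken by gene symbol from the deposited table of 17047 genes: the pocket protein genes RB1, RBL1 and RBL2, and the E2F genes E2F1, E2F2, E2F3, E2F4, E2F5, E2F7 and E2F8. All 10 passed the filter on low counts, among the 12959 genes tested. HCT116 is a long-established cell line from a human colorectal carcinoma. RNA was sequenced from 3 libraries of cells transduced with a non-targeting shRNA (shNC) and 3 libraries of cells transduced with PLEK2 shRNA, and the labels number both sets 1 to 3. The study describes the shRNAs as cloned into the pLKO.1 lentiviral vector and gives a single PLEK2 shRNA sequence. The comparison therefore appears to cover 1 shRNA, in 1 cell line, although the labels do not name the construct. The sources used here do not say whether the libraries came from separate cultures. The p-values measure the spread between these libraries, partly pooled over genes, and that spread may be technical.

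Pocket proteins restrain the cell cycle by holding E2F factors at the promoters of genes for DNA replication. Cyclin D and cyclin E kinases phosphorylate the pocket proteins as cells pass from G1 into S phase, the E2Fs are released, and their targets are transcribed. E2F1, E2F2 and E2F3 are the activators that RB1 binds, E2F4 and E2F5 work mainly as repressors with RBL1 (p107) and RBL2 (p130), and E2F7 and E2F8 repress the same promoters without a pocket protein or a DP partner. RBL2 with E2F4 or E2F5 also forms the DREAM complex, in which the MuvB proteins keep cell cycle genes silent in quiescent and senescent cells.

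Several of these genes are themselves known targets of E2Fs, so their promoters were searched for E2F-type sequences, and the 4 that held one are shown. The RefSeq promoter table (GRCh38.p14, from 250 bases before to 50 bases after a start site) was searched on both strands for TTTCCCGC, TTTCGCGC, TTTGCCGC and TTTGGCGC. At least 1 of these words was present in 3.31% of all 35116 entries. An entry was matched by symbol for 8 members and a word was found in 4 of them, E2F1, E2F2, E2F3 and RBL1. The last 60 bases before the start site are given 5′ to 3′ on the strand of the gene, with the words found in capitals.
E2F1, chr20:33686386-33686445, minus strand: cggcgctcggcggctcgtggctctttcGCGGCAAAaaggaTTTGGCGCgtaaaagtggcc
E2F2, chr1:23531234-23531293, minus strand: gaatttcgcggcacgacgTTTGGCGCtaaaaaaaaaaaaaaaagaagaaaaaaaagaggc
E2F3, chr6:20401819-20401878, plus strand: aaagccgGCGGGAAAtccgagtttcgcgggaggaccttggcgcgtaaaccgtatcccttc
RBL1, chr20:37095998-37096057, minus strand: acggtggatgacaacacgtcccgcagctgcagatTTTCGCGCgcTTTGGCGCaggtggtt

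Counting the base just before the start site as -1, the words of E2F1 began at -33 on the opposite strand and at -20 on the strand of the gene. The word of E2F2 began at -42, that of E2F3 at -53 on the opposite strand, and the adjacent words of RBL1 at -26 and -16. None of the 4 words was found in the entries of E2F4, E2F7 and RBL2, in the second entry of E2F3, or in the entry of RB1, which lies at a start site inside the gene. A match describes the letters of these windows and does not show that a factor binds there.

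Estimated read counts summed to between 14377532 and 15602732 per library. Levels are compared between libraries as CPM, a read count scaled to the library total with a TMM factor (a correction for differences in RNA composition). Between genes they are compared as the deposited FPKM, which divides by transcript length and does not use this TMM factor. PLEK2, the targeted gene, was at 86.0, 72.6 and 82.9 CPM in shNC replicates 1, 2 and 3, and at 16.0, 32.2 and 34.9 CPM with PLEK2 shRNA. The groups did not overlap, and knockdown replicate 1 was the lowest. Its log2 fold change was -1.54 (SE 0.24) without and -1.57 (SE 0.17) with the replicate number as a block, and edgeR's quasi-likelihood test gave adjusted p = 0.684 and adjusted p = 0.00106. All 5 epithelial markers were detected, with a summed level of 5052 to 5805 FPKM in shNC libraries and 4214 to 5372 FPKM in knockdown libraries. Those with the smallest p were KRT18, KRT19 and CDH1, with log2 fold changes of -0.24, -0.20 and -0.33 with the block (edgeR adjusted p = 0.0841, 0.0843 and 0.0965). Of 9 markers of other cell types 7 were found in the table, and their summed level was 28.8 to 41.3 FPKM in shNC and 31.2 to 36.3 FPKM in knockdown libraries. CD68 (21.2 to 31.3 FPKM), COL1A1 (4.26 to 5.94 FPKM) and ACTA2 (2.88 to 3.92 FPKM) made up nearly all of it, VWF lay between 0.05 and 0.13 FPKM, and CD3E, PECAM1 and COL3A1 between 0 and 0.05 FPKM. RNA was measured in bulk from 1 cell line, and fewer cells in a given state and less RNA per cell cannot be told apart.

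E2F4 transcripts far exceeded those of every other member. E2F4 stood at 107 FPKM averaged over the 6 libraries and ranged from 98.6 to 117 FPKM. E2F3 followed at a mean of 25.2 FPKM (23.2 to 28.2), E2F1 at 22.3 FPKM (17.2 to 27.4), E2F2 at 17.7 FPKM (13.9 to 19.5) and E2F8 at 16.0 FPKM (14.2 to 18.1). The lower members were RB1 at 9.02 FPKM (6.84 to 13.3), E2F7 at 7.47 FPKM (6.59 to 8.80), RBL2 at 6.68 FPKM (5.70 to 8.85), RBL1 at 6.08 FPKM (5.6 to 6.52) and E2F5 at 4.24 FPKM (3.08 to 5.94). Neighbours in this order overlapped in their library ranges except at 2 steps, from E2F4 to E2F3 and from E2F8 to RB1. The median over the members was 12.5 FPKM, beside 10.2 FPKM over the genes tested, and 5 of the 10 lay above that value.

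**Figure D1:**
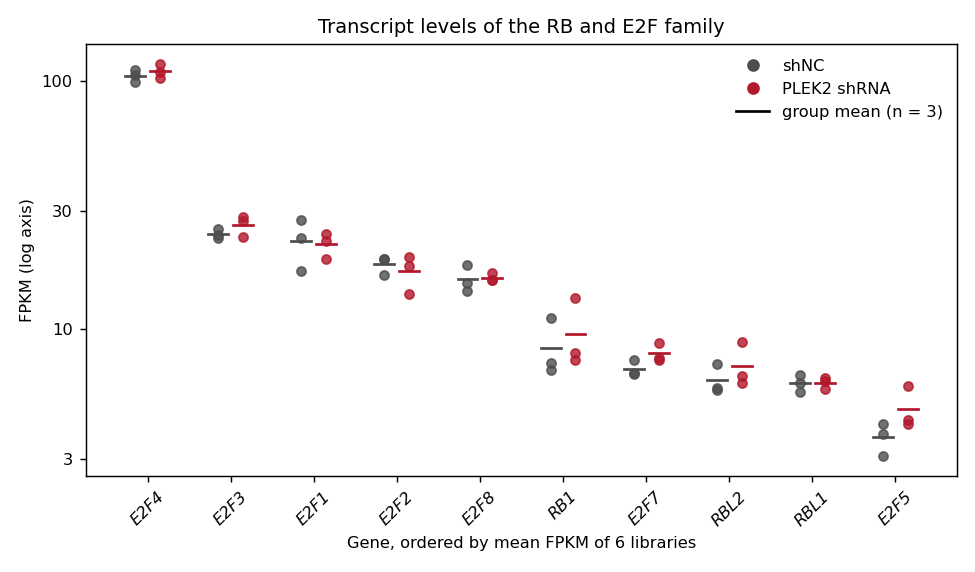
FPKM of each family member in the 3 shNC and 3 PLEK2 shRNA libraries on a log axis, with genes ordered by their mean over 6 libraries and short lines for group means. E2F4, at 98.6 to 117 FPKM, stands above the other 9 members, and the points of the groups overlap for every gene except E2F7, at 6.59 to 7.49 FPKM in shNC and 7.54 to 8.80 FPKM in knockdown libraries.

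E2F4 made up between 51.8% and 54.9% of the summed FPKM of the 7 E2F members in every library, with a mean of 53.3% ± 0.559 in shNC and 53.6% ± 1.63 in knockdown cells (SD, n = 3). The activators summed to 57.7, 67.7 and 69.6 FPKM in shNC replicates 1, 2 and 3, and to 56.7, 67.8 and 71.8 FPKM in knockdown replicates 1, 2 and 3. In both groups replicate 1 held the lowest activator sum, and the groups overlapped. Among the pocket proteins RB1 made up 44.6%, 38.2% and 37.7% of the summed FPKM in shNC replicates 1, 2 and 3, and 47.0%, 38.8% and 38.5% in knockdown replicates 1, 2 and 3. The share of RB1 was thus highest in replicate 1 of each group, while the share of RBL2 stayed between 29.1% and 31.4% in the 6 libraries.

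Silencing of PLEK2 was not followed by a change of any member that passed the test. edgeR's quasi-likelihood test without a block gave 0 of 10 members an adjusted p under 0.05, beside 0 of 12959 genes tested (0%), of which 400 had an unadjusted p under 0.05. None of the 10 members had an unadjusted p under 0.05 in that fit. DESeq2's Wald test called 12 genes in all and limma on log2(FPKM + 1) called 0, and neither called a member. Same-numbered libraries of the groups deviated together, so the replicate number was also fitted as a block. With the block edgeR called 110 genes (0.849%), 16 up and 94 down, and 0 of the 10 members, of which E2F5 alone had an unadjusted p under 0.05, beside 2377 of the 12959 genes tested. DESeq2 with the block called 57 genes and none of the members, but gave no adjusted p for RBL1, RBL2 and E2F5. The log2 fold changes were above 0 for 6 members and below 0 for 4 in both fits. Their median size with the block was 0.12, beside 0.10 for the genes tested. The 95% intervals with the block lay within a 1.5-fold change in either direction for 9 members, and those without it for 8. Their width rests on a variance partly pooled over genes, and can be narrower than a member's own pairs would give.

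**Figure D2:**
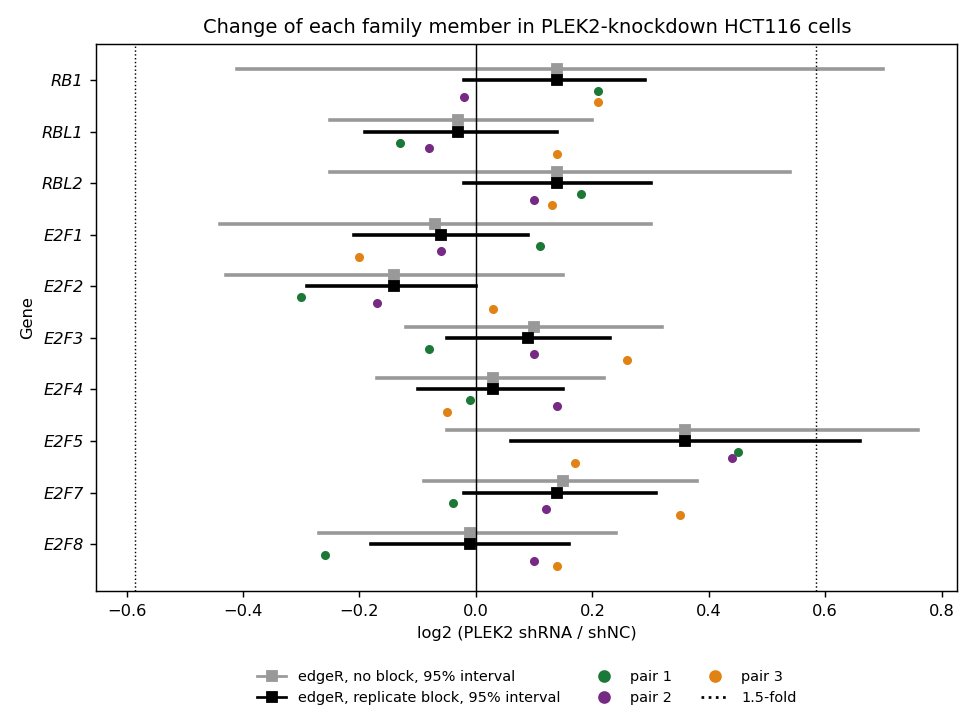
Log2 ratio of PLEK2 shRNA to shNC for each family member, with 95% intervals of edgeR's fits without (grey) and with (black) the replicate block and the ratio within each same-numbered pair as coloured points; dotted lines mark a 1.5-fold change. The black intervals cover 0 for 9 genes and lie above it for E2F5, at 0.06 to 0.66; an unadjusted p under 0.05 in this fit was found for 2377 of 12959 genes.

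RB1 encodes the retinoblastoma protein and lies on chromosome 13 (chr13:48303744-48599436, plus strand, GENCODE 44 on GRCh38). RB1 was at 50.7, 34.2 and 31.0 CPM in shNC replicates 1, 2 and 3, and at 58.6, 33.8 and 35.8 CPM in knockdown replicates 1, 2 and 3. Replicate 1 was the highest library in each group, and the groups overlapped. The log2 ratio within pairs was 0.21, -0.02 and 0.21, and the log2 fold change was 0.14 in both fits, with an SE of 0.24 (edgeR adjusted p = 0.968) without and 0.07 (edgeR adjusted p = 0.322) with the block. The interval with the block ran from a fold of 0.989 to 1.22.

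RBL1, which encodes p107 and is itself an E2F target in cycling cells, lies at chr20:36996349-37095997 on the minus strand. RBL1 was at 38.1, 35.1 and 32.4 CPM in shNC and at 34.7, 33.2 and 35.7 CPM in knockdown libraries 1, 2 and 3. The highest and the lowest of the 6 values were both shNC libraries, and the ratios within pairs did not share a sign. The log2 fold change was -0.03 (SE 0.07, edgeR adjusted p = 0.892) with the block. Counts of RBL1 were exactly whole in only 2 of 6 libraries, so some reads appear to have been divided with other genes, which were not identified.

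RBL2 encodes p130, the pocket protein that accumulates in resting cells, and lies at chr16:53433977-53491648 on the plus strand. RBL2 was at 33.1, 24.7 and 24.6 CPM in shNC replicates 1, 2 and 3, and at 37.7, 26.4 and 26.9 CPM in knockdown replicates 1, 2 and 3. Replicate 1 was again the highest in each group, the groups overlapped, and each knockdown library was above the shNC library of its number, by 0.18, 0.10 and 0.13 on the log2 scale. The log2 fold change of 0.14 did not pass the test (edgeR adjusted p = 0.968 without and 0.332 with the block). RBL2 and E2F5 were the 2 members with the same sign in all pairs, a pattern found for 41% of the genes tested. The 3′ end of RBL2 overlaps the opposite-strand gene AKTIP over 609 bases (chr16:53491040-53491648), and the decimals in their counts summed to whole numbers within 0.015 in 6 of 6 libraries, so reads appear to have been divided between them. The sum of both genes had log2 ratios of 0.11, 0.06 and 0.13 within pairs.

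**Figure D3:**
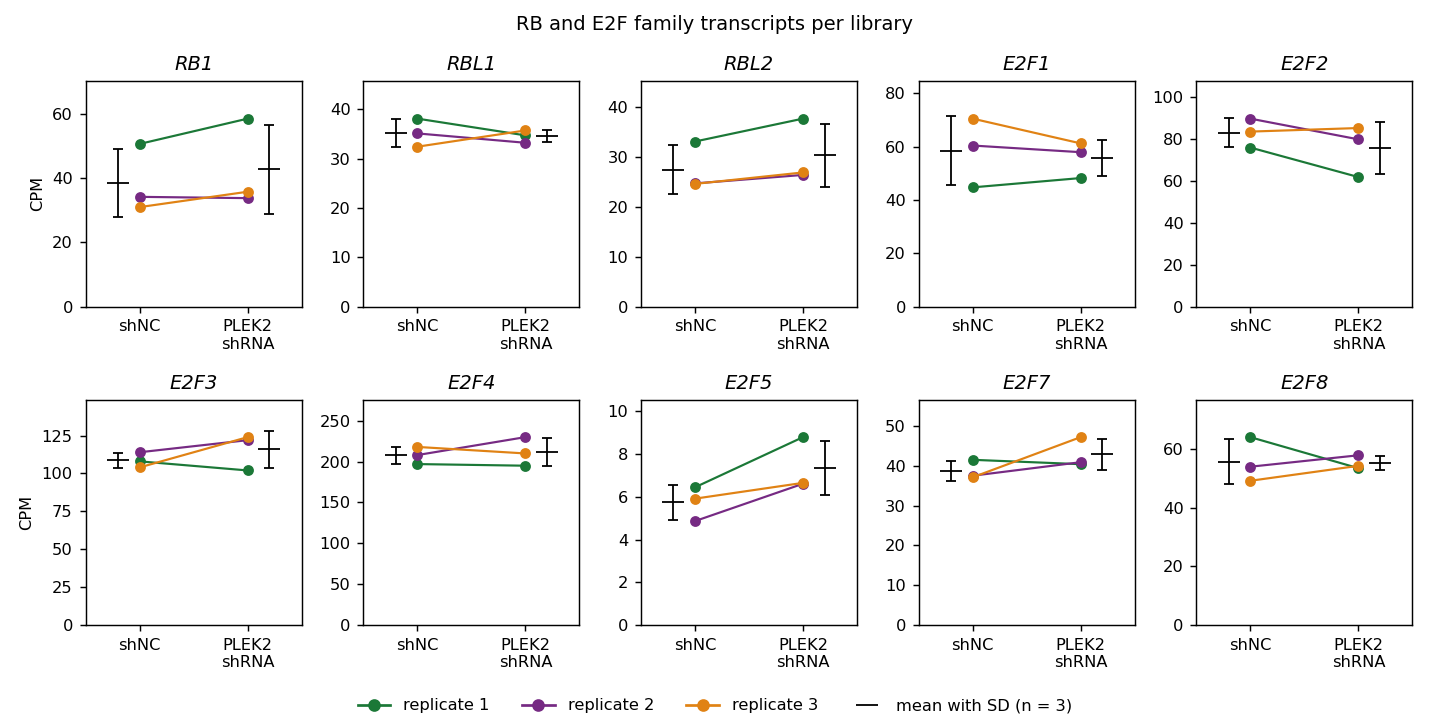
CPM of each family member in every library, with same-numbered shNC and PLEK2 shRNA libraries joined by a line and the mean and SD of each group (n = 3) beside the points. The lines of RB1 and RBL2 in replicate 1 lie above those of replicates 2 and 3 on both sides and the line of E2F1 lies below, while all 3 lines of E2F5 point upward.

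The activator E2Fs drive entry into S phase. E2F1 (chr20:33675477-33686385, minus strand) was at 44.7, 60.4 and 70.5 CPM in shNC replicates 1, 2 and 3, and at 48.2, 57.9 and 61.2 CPM in knockdown replicates 1, 2 and 3. Replicate 1 was the lowest and replicate 3 the highest in each group, and the groups overlapped. The pair ratios were 0.11, -0.06 and -0.20, and the log2 fold change with the block was -0.06 (SE 0.07, edgeR adjusted p = 0.691).

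E2F2 (chr1:23506438-23531233, minus strand) was at 75.9, 89.7 and 83.5 CPM in shNC and at 61.8, 79.8 and 85.2 CPM in knockdown libraries 1, 2 and 3. Knockdown replicate 1 was the lowest of the 6 and the groups overlapped. Among the members E2F2 had the log2 fold change furthest below 0, -0.14 (SE 0.07, edgeR adjusted p = 0.274) with the block, from pair ratios of -0.30, -0.17 and 0.03. The 95% interval ran from -0.29 to 0.00.

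E2F3 (chr6:20401879-20493714, plus strand) was at 108, 114 and 104 CPM in shNC and at 102, 122 and 124 CPM in knockdown libraries 1, 2 and 3. Both the lowest and the highest values were knockdown libraries, with pair ratios of -0.08, 0.10 and 0.26. The log2 fold change was 0.09 (SE 0.07, edgeR adjusted p = 0.474) with the block. The 3 activators therefore had no common direction, and each gave both signs among its pairs.

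Among the repressors bound by pocket proteins, E2F4 (chr16:67192155-67198918, plus strand) was at 197, 208 and 218 CPM in shNC and at 195, 230 and 210 CPM in knockdown libraries 1, 2 and 3. The groups overlapped and the pair ratios were -0.01, 0.14 and -0.05. E2F4 had the narrowest interval of the members, a fold of 0.936 to 1.11 with the block (log2 fold change 0.03, SE 0.06, edgeR adjusted p = 0.852). Counts of 2945 to 3496 per library stood behind these values.

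E2F5, the lowest member, had the largest log2 fold change and the widest interval of the family in the fit with the block. Estimated counts of E2F5 were only 98.9, 68.8 and 85.4 in shNC and 138, 101 and 101 in knockdown libraries 1, 2 and 3, or 6.44, 4.86 and 5.91 CPM against 8.79, 6.61 and 6.65 CPM. Every knockdown library was above every shNC library in CPM, although the gap was small, and in FPKM shNC replicate 1 (4.17) was above knockdown replicate 2 (4.15). E2F5 was the only member whose groups did not overlap in CPM, which held for 9.19% of the genes tested, and a two-sided exact permutation test of 3 against 3 libraries cannot go below p = 0.1. The pair ratios were 0.45, 0.44 and 0.17 on the log2 scale, with 95% intervals from counting error alone of 0.06 to 0.83, -0.01 to 0.91 and -0.25 to 0.62. The log2 fold change was 0.36, or 1.28-fold, with an SE of 0.18 (edgeR adjusted p = 0.968) without and 0.14 (edgeR adjusted p = 0.196) with the block.

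The counts of E2F5 (chr8:85177154-85217158, plus strand) were not independent of a neighbour. Its exons overlap those of the opposite-strand gene RBIS, listed in the table under its older symbol C8orf59, over 997 bases. The decimals of the 2 genes summed to whole numbers in 6 of 6 libraries, and E2F5 took between 11% and 14% of the sum. C8orf59 itself had a log2 fold change of 0.21 (SE 0.08, edgeR adjusted p = 0.177) with the block, and the sums had log2 ratios of 0.42, 0.11 and 0.14 within pairs. The part of this division in the value of E2F5 was not tested.

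The atypical E2Fs fold back on the E2F programme as repressors that are made in S phase. E2F7 (chr12:77021248-77065569, minus strand) was at 41.5, 37.5 and 37.1 CPM in shNC and at 40.4, 40.9 and 47.2 CPM in knockdown libraries 1, 2 and 3. The groups overlapped in CPM through replicate 1 but not in FPKM, where shNC libraries ended at 7.49 and knockdown libraries began at 7.54. The log2 fold change was 0.14 (SE 0.08, edgeR adjusted p = 0.347) with the block. E2F8 (chr11:19224063-19241620, minus strand) was at 64.1, 54.0 and 49.2 CPM in shNC and at 53.5, 57.9 and 54.3 CPM in knockdown libraries. The shNC libraries of E2F8 spread over a wider range than the knockdown libraries and enclosed them, and the log2 fold change was -0.01 (SE 0.08, edgeR adjusted p = 0.966) with the block.

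In the block fit an F test for the replicate number over both groups, chosen after seeing the data, gave 4 of 10 members an adjusted p under 0.05, beside 28.4% of the genes tested, so the count does not set the family apart. RB1 was 1.55-fold higher in replicate 1 than in the mean of replicates 2 and 3 in shNC and 1.68-fold in knockdown cells (edgeR adjusted p = 0.000193), and RBL2 was 1.34-fold and 1.41-fold higher (edgeR adjusted p = 0.00244). E2F1 went the other way, at 0.683 times and 0.810 times the mean of the other libraries (edgeR adjusted p = 0.00263), and E2F2 at 0.877 times and 0.749 times (edgeR adjusted p = 0.0205). In replicate 1 of both groups RB1 and RBL2 were thus high and E2F1 and E2F2 low, whether or not PLEK2 had been silenced. The labels do not say what the number stands for.

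**Figure D4:**
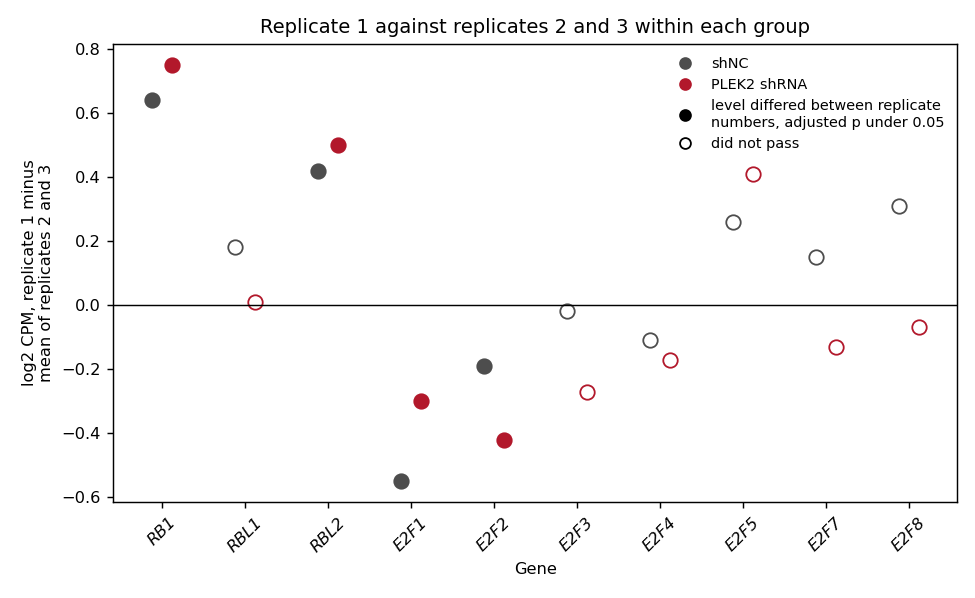
Log2 CPM of replicate 1 minus the mean of replicates 2 and 3, for each family member in shNC (grey) and PLEK2 shRNA (red) libraries; filled points mark genes whose level differed between replicate numbers at an adjusted p under 0.05. RB1 and RBL2 lie above 0 and E2F1 and E2F2 below 0 in both groups.

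The genes whose log2 CPM most resembled that of E2F1 over the 6 libraries were GRINA (Pearson r = 0.998), GPX1 (r = 0.994) and LRPAP1 (r = 0.994), out of 10133 genes with a mean log2 CPM over 3. E2F1 had an r over 0.9 with 664 of these genes, and the libraries share the replicate pattern above. The genes most like E2F5 were SAMD12 (r = 0.992), BECN1 (r = 0.990) and ZBTB25 (r = 0.988), out of 10134, with 285 genes over 0.9. These r values describe 6 libraries.

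The direct partners of the family did not pass the test either, beside 0.849% of the genes tested that passed with the block. TFDP1 encodes the main DP subunit, which E2Fs other than E2F7 and E2F8 need to bind DNA. TFDP1 was at 259 to 282 CPM in shNC and at 265 to 279 CPM in knockdown libraries. The log2 fold change of TFDP1 was 0.00 (SE 0.05, edgeR adjusted p = 0.987) with the block. TFDP2, its paralogue, was at 49.9, 59.6 and 59.6 CPM in shNC and at 62.4, 62.4 and 62.3 CPM in knockdown libraries (log2 fold change 0.15, edgeR adjusted p = 0.252). Counts of TFDP2 were exactly whole in 0 of 6 libraries, so some of its reads also appear to have been divided with other genes. E2F6, a repressor that acts with Polycomb proteins and not with pocket proteins, was at 40.3, 40.9 and 36.4 CPM in shNC and at 43.2, 42.6 and 42.4 CPM in knockdown libraries (log2 fold change 0.12, edgeR adjusted p = 0.341). For TFDP2 and E2F6 the groups did not overlap in CPM, as for 9.19% of all genes tested.

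Upstream of the pocket proteins 1 regulator passed the test with the block. CDKN1A encodes p21, the inhibitor of the kinases that phosphorylate pocket proteins, and was at 214, 126 and 136 CPM in shNC replicates 1, 2 and 3, and at 299, 158 and 158 CPM in knockdown replicates 1, 2 and 3. Each knockdown library was above the shNC library of its number, but shNC replicate 1 was above knockdown replicates 2 and 3. CDKN1A rose by 0.35 on the log2 scale (SE 0.06, edgeR adjusted p = 0.0215 with and 0.968 without the block). Like RB1 and RBL2, CDKN1A was higher in replicate 1 of both groups, by 0.71 and 0.92 on the log2 scale. It was the only call among 7 CDK inhibitors, beside 0.849% of the genes tested. CDKN1B (p27) and CDKN2A (p16 and ARF) had log2 fold changes of 0.16 and -0.17 (edgeR adjusted p = 0.428 and 0.228).

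None of the 8 tested genes for cyclins and kinases that act on pocket proteins passed the test. Of all genes tested 0.849% passed with and 0% without the block, so short lists with no call are not set apart. Their median log2 fold change was 0.04 with the block. Those with the smallest p were CCNE2 (cyclin E2) at 0.29 (edgeR adjusted p = 0.0914), CCND1 (cyclin D1) at -0.17 (edgeR adjusted p = 0.152) and CCNE1 (cyclin E1) at 0.13 (edgeR adjusted p = 0.246). None of 10 corepressors recruited by pocket proteins passed, among them SMARCA4 at -0.19, SUV39H1 at -0.22 and DNMT1 at -0.18 (edgeR adjusted p = 0.112, 0.147 and 0.172). None of 7 genes for the MuvB core, B-MYB and FOXM1 passed, among them LIN9 at 0.28, LIN54 at 0.23 and MYBL2 at -0.18 (edgeR adjusted p = 0.143, 0.177 and 0.160).

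Downstream of the family, 2 of 57 G1/S genes that E2Fs are known to activate passed the test with the block, both lower in knockdown cells, beside 0.849% of the genes tested, of which 94 of 110 were lower. None of the 57 passed without the block. TYMS encodes thymidylate synthase and was at 199, 148 and 145 CPM in shNC and at 45.7, 76.2 and 77.4 CPM in knockdown libraries 1, 2 and 3. It fell by 1.31 on the log2 scale (SE 0.17, edgeR adjusted p = 0.00333). CDT1, a licensing factor for replication origins, fell by 0.26 (SE 0.05, edgeR adjusted p = 0.0471), from 212, 296 and 292 CPM to 172, 260 and 241 CPM, with groups that overlapped. The next by p was POLD1, the catalytic subunit of DNA polymerase delta, at -0.27 (edgeR adjusted p = 0.0505). The median of the 57 genes was -0.02 with the block, beside -0.00 for all genes tested, with 24 values above 0 and 33 below. The pair medians were -0.12, -0.00 and 0.07. The decimals in the counts of TYMS summed with those of ENOSF1 to whole numbers within 0.015 in 5 of 6 libraries and to 2007.03 in knockdown replicate 2, and the sum of both genes had pair ratios of -1.32, -0.65 and -0.59.

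Of 40 G2/M genes of MuvB with B-MYB and FOXM1, 2 passed with the block, beside 0.849% of the genes tested. KIF14, a mitotic kinesin, was at 49.4, 36.3 and 26.9 CPM in shNC and at 32.2, 22.3 and 18.7 CPM in knockdown libraries 1, 2 and 3, and fell by 0.62 (SE 0.07, edgeR adjusted p = 0.00243). PLK1, a mitotic kinase, was at 253, 246 and 226 CPM in shNC and at 149, 208 and 182 CPM in knockdown libraries and fell by 0.44 (SE 0.08, edgeR adjusted p = 0.0283). The groups overlapped for KIF14 and did not for PLK1. The median of the 40 was -0.00, with 20 values above and 20 below 0, and the third by p was CDC20 at -0.18 (edgeR adjusted p = 0.156). Without the block the median was -0.01, and leaving out 1 library moved it to -0.15 (without knockdown replicate 1), 0.15 (without shNC replicate 1) or -0.11 (without shNC replicate 3). The level of 24 of the 40 genes differed between replicate numbers, beside 28.4% of the genes tested, and the median gene was 0.43 higher in replicate 1 in shNC and 0.30 higher in knockdown cells on the log2 scale.

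With the block and replicate 1, 2 or 3 left out of both groups, 2 pairs remained each time. The p-values of these fits rest largely on a variance pooled over genes, and little on the spread of each gene's own pairs. TYMS passed each time (edgeR adjusted p = 8.21e-13, 0.0157 and 1.22e-16). Without replicate 1 the log2 fold change was -0.92 for TYMS and -0.27 for PLK1, beside -1.31 and -0.44 with all pairs. CDKN1A, CDT1 and KIF14 were then at 0.28, -0.23 and -0.61, and all 5 genes passed. Without replicate 2, CDKN1A, CDT1, KIF14 and PLK1 did not pass (edgeR adjusted p = 0.224, 0.278, 0.0872 and 0.106), with log2 fold changes of 0.37, -0.28, -0.57 and -0.53. Without replicate 3 CDT1 did not pass either (log2 fold change -0.23, edgeR adjusted p = 0.0702). Scaling by library totals in place of TMM kept an adjusted p under 0.05 for all 5. DESeq2 with the block gave TYMS an adjusted p of 0.0529 and gave none to KIF14.

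**Figure D5:**
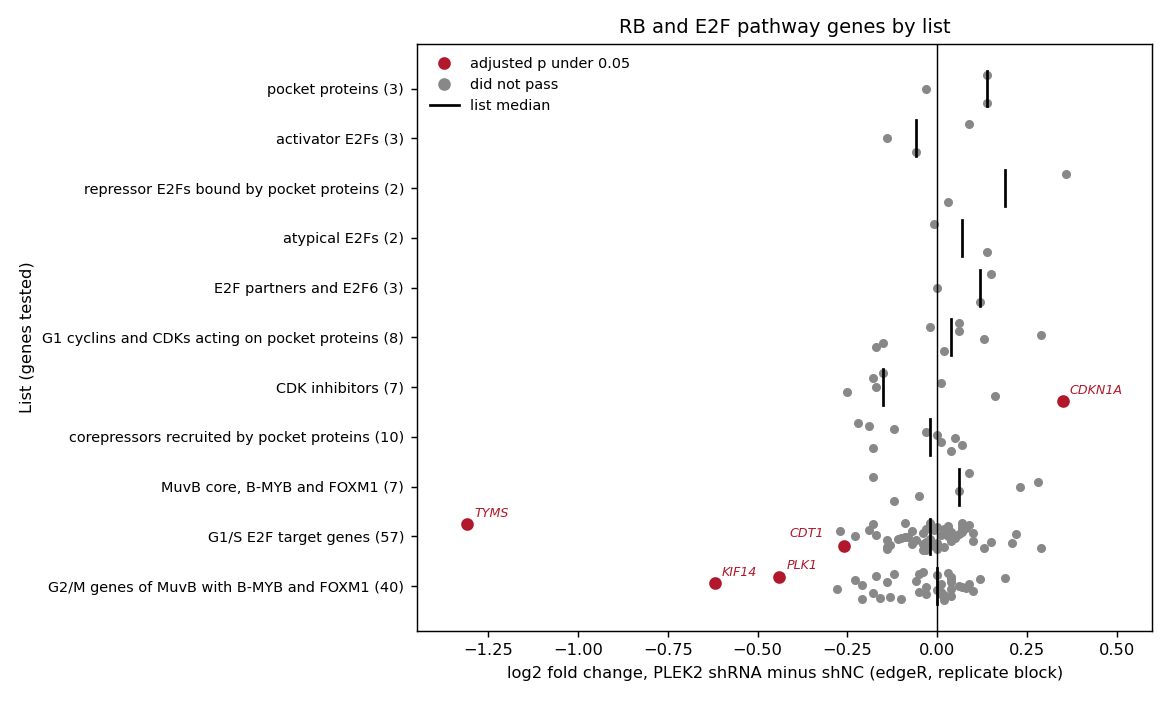
Log2 fold change of PLEK2 shRNA against shNC (edgeR with the replicate block) for each tested gene of the RB and E2F pathway lists, with the list median as a black line and genes at an adjusted p under 0.05 in red and named. The 10 family members in the top 4 rows lie between -0.14 and 0.36 and none is red, while CDKN1A is red above 0 and TYMS, CDT1, KIF14 and PLK1 below 0.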

How the data were processed

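The authors deposited estimated counts per gene, unnormalized, and length-scaled values without a unit in the header, read here as FPKM deposited by the authors. Between 84.2% and 85.4% of the counts were exactly whole (no tolerance). The submitters' notes name HISAT2 2.0.4, Bowtie2 2.2.5, RSEM 1.2.12, DESeq2 1.4.5 and the mouse build GRCm38.p6, although the genes are human, so GRCh38 coordinates (GENCODE 44) give location only. Oligo(dT)-selected RNA was read as single ends of 50 nt. Whether counting used strand is not given in the sources used here.

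Counts were rounded and tested with edgeR 4.0.16 (filterByExpr, TMM factors 0.984 to 1.021, quasi-likelihood test, Benjamini-Hochberg adjustment over 12959 genes) without a block. The study gives an unpaired test for its statistics in general, and the design behind its use of DESeq2 is not given in the sources used here. Calls required an adjusted p under 0.05. limma 3.58.1 and DESeq2 1.42.0 in R 4.3.3 were alternatives, beside other filters and scalings and leaving out libraries. Scripts were tested on simulated data. The SE is the log2 fold change divided by the square root of F.

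Replicate numbers were taken to pair the libraries. Each gene's deviation from its group mean, in 10134 genes whose log2 CPM averaged above 3, correlated at 0.74, 0.57 and 0.57 for libraries sharing a number and at -0.63 to 0.37 for the others. Deviations from a group mean cancel within the group, so some negative values are forced. Replicates 2 and 3 of opposite groups correlated at 0.37, and the pairing is plainest for replicate 1. The pairing rests on these values and the shared numbers, with no batch or day in the labels.

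The members, gene lists and tests were chosen with earlier results of these data known. Named genes are all members, E2F6, TFDP1, TFDP2, PLEK2, list genes that passed, the 3 smallest p per list (other markers were named after their values were seen), and the 3 genes most like E2F1 and E2F5. Some genes of these lists are not reported here. Deposited group means were not used. Intervals on counts cover counting error only.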

Additional observations from a re-analysis of the deposited data

How the results depend on the processing

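The count of 0 family members with an adjusted p under 0.05 was obtained in all 19 alternatives run. The number of genes called moved from 0 to 12 with DESeq2's Wald test, 110 with the replicate block, 57 with the block in DESeq2 and 192 with the block and library totals, and lay between 0 and 1 when single libraries were left out. With the block and replicate 1, 2 or 3 left out of both groups it was 528, 18 and 297. The block changed no call among the members.

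PLEK2 passed with DESeq2 (log2 fold change -1.53), DESeq2 with the block (-1.60), the block (-1.57), library totals with the block (-1.54), and the block without replicate 1, 2 or 3 (-1.21, -1.78 and -1.74). Without single libraries its log2 fold change lay between -1.74 and -1.26, and it passed without knockdown replicate 1.

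E2F2 was below 0, and E2F3, E2F5 and E2F7 were above 0, in every alternative, with ranges of -0.23 to -0.01 for E2F2, 0.02 to 0.18 for E2F3, 0.21 to 0.47 for E2F5 and 0.05 to 0.24 for E2F7, so some of these values lay close to 0. The other 6 members changed sign in at least 1, with no call on either side, and the cause was not tested. RBL1 was at 0.01 with library totals, with library totals and the block, and with limma at either pseudocount, and at 0.04 and 0.01 with the block and without replicate 1 or 2. E2F8 was at 0.02 with library totals (with and without the block), 0.03 with limma at either pseudocount, and 0.13 with the block and without replicate 1. E2F1 was at 0.03 with the block and without replicate 3, and E2F4 at -0.02 with the block and without replicate 2. When single libraries were left out RB1 ranged from -0.15 to 0.40, RBL1 from -0.07 to 0.05, RBL2 from -0.04 to 0.31, E2F1 from -0.22 to 0.09, E2F4 from -0.04 to 0.08 and E2F8 from -0.09 to 0.11. RB1 and RBL2 were below 0 only without knockdown replicate 1.

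Depth limited E2F5 most, since 68.8 to 138 counts per library leave a counting error of 8.51% to 12%, beside 1.69% to 1.84% for E2F4. The F test on the replicate number was chosen after seeing the data.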
